A study of Mus musculus with 12 samples.

Results

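Fat cells isolated from subcutaneous fat were compared with fat cells isolated from intraabdominal fat, gene by gene, on 3 arrays each: 6 of the series' 12 arrays. The mice were male C57BL/6, an inbred laboratory strain, aged 42 to 49 days, with no transgene, diet or drug in the labels. Flank fat served as the subcutaneous and epididymal fat as the intraabdominal depot. Fat of 10 mice was pooled by depot and digested with collagenase, and the cells that floated were taken as adipocytes. The labels do not say whether the 3 arrays of a depot hold separate pools, so every p-value measures the spread between these arrays, which may be technical. The other 6 arrays hold plated stromo-vascular cells of the same depots, cultured for 16 h, and are used here to share the estimate of the spread and to ask whether a depot difference was particular to adipocytes. All 12422 probe sets other than array controls were taken, 8695 of them bright enough to test, and these stood for 6436 named genes.

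Adipocytes store triglyceride in a lipid droplet, build and burn fatty acids, take up glucose under insulin and secrete hormones, and fat of different depots is known to differ in each of these. They also express the machinery of innate immunity. Interferons bind cell surface receptors that act through JAK kinases and STAT factors, and STAT and IRF factors then bind short promoter elements of a large set of genes, among them the Ifit family, Isg15, the guanylate binding proteins and the parts of the immunoproteasome that cut peptides for display on MHC class I. Socs3 is a feedback inhibitor of JAK signalling that cytokines induce.

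A signal below is the deposited MAS5 intensity of a probe set, given for each array or as a mean ± SD over 3 arrays. It does not compare one gene with another, because probe sets bind their targets with different strength. A log2 difference is subcutaneous minus intraabdominal, given ± its standard error, and a fold is on the same scale, that of the signal plus a pseudocount. A gene was called when its Benjamini-Hochberg adjusted p from limma was under 0.05 in the fit of all 12 arrays. By that rule 534 of 6436 genes (8.3%) were called, 236 (3.67%) higher and 298 (4.63%) lower in subcutaneous adipocytes. The adipocyte arrays varied more than the stromo-vascular ones, with a median residual SD of 0.304 against 0.218 (log2). On simulated data with this unequal spread 24% of the calls from the fit of 12 arrays were false, more than its threshold states. In the fit of the 6 adipocyte arrays 4.31% were false, so calls made in the first alone are less sure. Of simulated 2-fold changes the fits recovered 60% and 30%. The simulation took the spread of each probe set as estimated from these same arrays. The stricter count is the genes called also when the 6 adipocyte arrays were fitted alone, 205 (3.19%), of which 68 (1.06%) were higher and 137 (2.13%) lower. All 3 arrays of one depot lay above all 3 of the other in 1580 genes (24.5%). Counts within a gene list below are to be read beside these shares of all genes.

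The arrays of the depots also differed as a whole, and the part of this in each result was not tested. The 3' to 5' signal ratio of the actin control, which rises as RNA breaks down, was 2.35 to 3.10 on the subcutaneous and 1.71 to 2.24 on the intraabdominal adipocyte arrays. With the probe sets divided by brightness into 4 bins of equal size, the median difference was 0.26 in the dimmest bin and -0.09 in the brightest, and after quantile normalization it was between -0.04 and -0.02 in every bin. The median over all genes was 0.05, and -0.16 once the arrays were brought to a common median, so a list whose median lies near 0 changes sign with the centring and is to be read against these values. Centring also changed the split of calls, which was 345 probe sets higher (3.97%) and 362 lower (4.16%) among 707 of 8695 (8.13%), to 172 and 786. With the actin ratio as a covariate 53 of the 205 genes kept their call and all 205 their direction. The ratio did not overlap between the depots, so this fit can only partly separate it from depot. A call can be lost there while the difference grows, as in Alb (2.60 without and 2.845 with the covariate). It can also be lost as the difference falls, as in Egr2 (-0.76 and -0.348). A lost call therefore does not tell whether RNA breakdown made the difference. Of the called genes named below, those that kept the call with the covariate included Acta1, Anxa1, Anxa8, Ccl8, Chchd10, Cpt1a, Cyp1b1, Elovl6, H2-Q10, Il1r1, Irf1, Klf6, Nr4a1, Pcolce, Plac8, Psmb8, Rpl39l, Saa2, Serpinf1, Shox2, Socs3, Tcf21 and Usp18. Most of the others lost it.

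The depot labels could be set against the cell type. Adipocyte genes set both groups apart from the stromo-vascular cells: Adipoq, which encodes the hormone adiponectin, read 140415 ± 20112 in subcutaneous and 124289 ± 8010 in intraabdominal adipocytes, against 245 ± 46.3 and 141 ± 2.22 in the stromo-vascular cells of the same depots. Of 18 tested adipocyte markers 0 were called higher and 1 lower, and the median was -0.04. Lipe, the hormone-sensitive lipase, had a log2 difference of -0.47 (adjusted p = 0.277), Lpl, the lipoprotein lipase, one of -0.36 (0.156) and Pparg, the master regulator of fat cells, one of 0.00 (0.994). Markers of other cells were read against the 8.3% of all genes. Called members made up 71.4% of the 7 brown fat, 42.9% of the 7 nerve and Schwann cell, 25.0% of the 4 mast cell, 21.1% of the 19 preadipocyte and fibroblast and 11.8% of the 17 macrophage markers. Among 17 macrophage markers 2 were higher (Fcgr1 and Cd14, neither in the fit of 6 arrays), among 15 endothelial markers 1 was lower (Ramp2), and among 12 smooth muscle and pericyte markers 1 was lower (Mylk). Skeletal muscle markers had 1 of 17 lower (Acta1), mast cell markers 1 of 4 higher (Gata2), and lymphocyte markers 1 of 11 lower (Ighm). Nerve and Schwann cell markers had 3 of 7 lower (Pmp22, Tubb3 and Egr2, the last in both fits and also an immediate early gene). Their summed signal was 23602 to 25874 in subcutaneous and 34044 to 39894 in intraabdominal adipocytes. The median of these 7 was -0.01, and 3 of them had a difference above 0. None of the 7 tested mesothelial, 6 epididymal and testicular, 11 keratinocyte and mammary epithelial and 5 erythroid and platelet markers was called in the fit of 12 arrays. Fewer cells of a type and less RNA per cell cannot be told apart in such pooled samples.

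**Figure D1:**
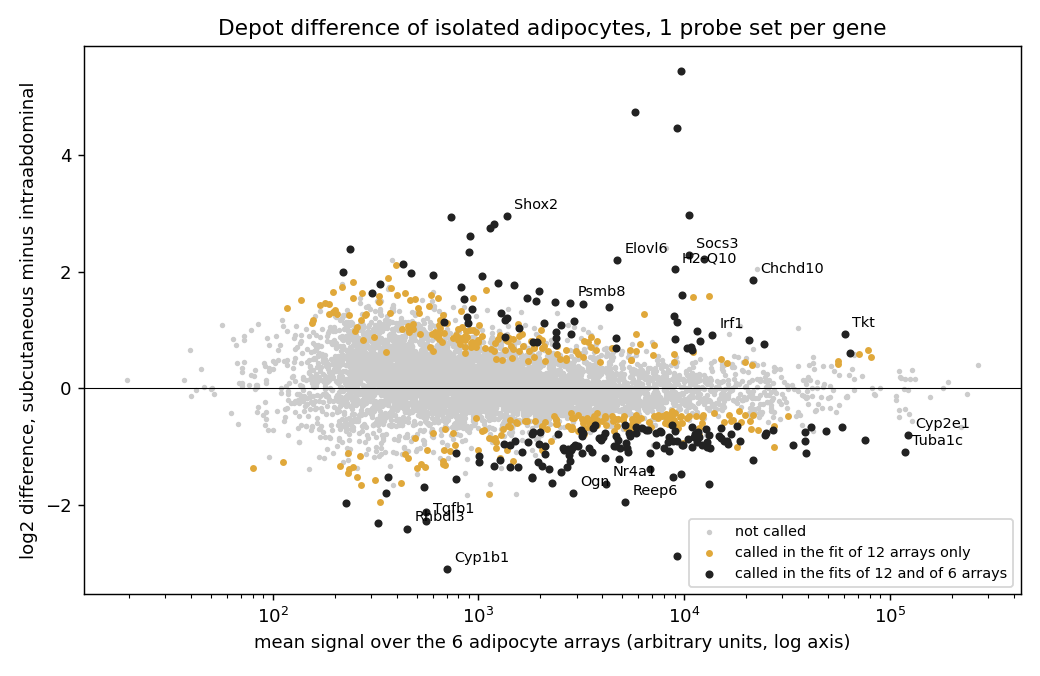
Each point is 1 of the 6436 genes tested, with the mean signal of the 6 adipocyte arrays on the x axis (log axis, arbitrary units) and the log2 difference of subcutaneous minus intraabdominal adipocytes on the y axis. Grey genes were not called, orange ones were called in the fit of 12 arrays only, and the 205 black ones, 68 above and 137 below 0, in both fits.

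Interferon-regulated genes formed the largest group of calls in one direction among the pathway lists. Of 24 tested members 12 were higher in subcutaneous adipocytes and 0 were lower, beside the 3.67% of all genes called higher. In the fit of 6 arrays 8 of the 12 kept the call (1.06% of all genes), and the only call toward intraabdominal adipocytes in any fit came with arrays brought to a common median or without subcutaneous array 3, 1 gene each (Xdh after centring). With the actin covariate 3 of the calls toward subcutaneous adipocytes were left, and with any 1 array left out 9 to 12. The median difference was 0.77 (0.55 after centring, 0.72 after quantile normalization), beside 0.05 for all genes (-0.16 after centring). A difference above 0 was found in 22 of 24 members. In 18 the groups did not overlap, beside 24.5% of all genes.

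The immunoproteasome gave 2 of these calls. Psmb8, an inducible catalytic subunit, read 3813, 3733 and 4798 on the subcutaneous adipocyte arrays and 1562, 1594 and 1236 on the intraabdominal ones (2.76-fold, adjusted p = 2.55e-05). The groups stood well apart, and the call held in all 17 alternative settings. Psmb9, another inducible catalytic subunit, read 3312, 2402 and 3380 against 1053, 745 and 974 (3.18-fold, adjusted p = 0.018), also without overlap. Its call was lost without subcutaneous array 1 (adjusted p = 0.054), without intraabdominal array 2 (0.076) with array weights (0.0797) and with the actin covariate (0.113). Over the whole proteasome family 43 genes were tested, and the other 41, which include the constitutive subunits, gave no call by limma in the fit of 12 arrays; the family's median was -0.07. Tap1, a subunit of the transporter that carries the cut peptides into the endoplasmic reticulum, read 2715, 3089 and 3733 against 1530, 1738 and 1500 (1.96-fold, adjusted p = 0.00314; with the actin covariate adjusted p = 0.0692). MHC genes were read from a list of all tested symbols beginning H2-, chosen after their values were seen. This list also holds class II and other genes, so its count is not one of class I alone. Of these 22 genes 7 were higher, beside 3.67% of all genes, and 0 lower, with a median of 0.58 (0.36 centred). Of them H2-Q10 was called in both fits. The class II genes H2-Aa, H2-Ab1, H2-Eb1, H2-DMa and H2-DMb1 had differences of -0.29, -0.61, -0.07, -0.08 and -0.23. H2-Oa, also of class II, had one of 0.99, and none of these was called. The classical heavy chains H2-K1 (105329, 95012 and 89534 against 66061, 71418 and 61240; 1.46-fold, adjusted p = 0.00631) and H2-D1 (1.5-fold, adjusted p = 0.00577) were called with all arrays but not with 6 (adjusted p = 0.0839 and 0.0714) or with the actin covariate (0.284 and 0.201), and members of this family are close enough in sequence to share probe signal. B2m, their common light chain, read 74956, 79495 and 81431 against 68870, 68435 and 66723 and was not called (adjusted p = 0.211).

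Regulators and effectors of the interferon response were higher as well. Irf1, a transcription factor that interferon induces, read 16117, 17390 and 19902 on the subcutaneous adipocyte arrays and 11580, 8521 and 8472 on the intraabdominal ones (1.88-fold, adjusted p = 0.0039), with no overlap and a call in all 17 settings. Usp18, the protease that removes Isg15 from proteins and damps receptor signalling, read 505, 492 and 447 against 162, 113 and 112 (3.11-fold, adjusted p = 0.000876). Isg15 itself, a ubiquitin-like protein, read 1882, 1849 and 1527 against 1080, 953 and 764 (1.85-fold, adjusted p = 0.0061), and lost its call with the actin covariate (0.164). Ifitm3, a membrane protein that blocks virus entry, read 18243, 13376 and 14700 against 7865, 8591 and 6725 (1.99-fold, adjusted p = 0.000541; 0.0567 with the actin covariate). In each of these genes all subcutaneous arrays lay above all intraabdominal ones. Ifi47, an interferon-inducible GTPase that the naming rule took from all genes, read 653, 472 and 468 against 131, 212 and 59.7 (3.47-fold, adjusted p = 0.00249; 0.161 with the actin covariate).

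The other called members are named after their values were seen. Gbp3, a guanylate binding protein, read 2396, 4039 and 3841 against 1777, 1810 and 1178 (2.11-fold, adjusted p = 0.0138; 0.104 with the actin covariate), where subcutaneous array 1 was low but still above the other depot. Ifit1 and Ifit3, which bind foreign RNA and restrict its translation, were 2.94-fold (adjusted p = 0.0188) and 2.07-fold (0.0236) higher. Ifit1 was uneven within the subcutaneous depot, at 1944, 1749 and 623, against 531, 524 and 247. The GTPase Igtp (1.98-fold, adjusted p = 0.016) and the factor Irf7 (1.77-fold, adjusted p = 0.0244) complete the 12. Ifit1, Ifit3, Igtp and Irf7 were not called in the fit of 6 arrays (adjusted p = 0.0917, 0.0734, 0.0596 and 0.0855) and were called in 13, 9, 11 and 9 of the 17 settings. With the actin covariate their adjusted p was 0.575, 0.159, 0.296 and 0.164. The members without a call ranged from Xdh at -0.53 (adjusted p = 0.0696) to Mx2 at 0.72 (0.209), and included Irf9, which pairs with STAT factors, at 0.37 (0.197) and Gbp2 at 0.23 (0.488).

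**Figure D2:**
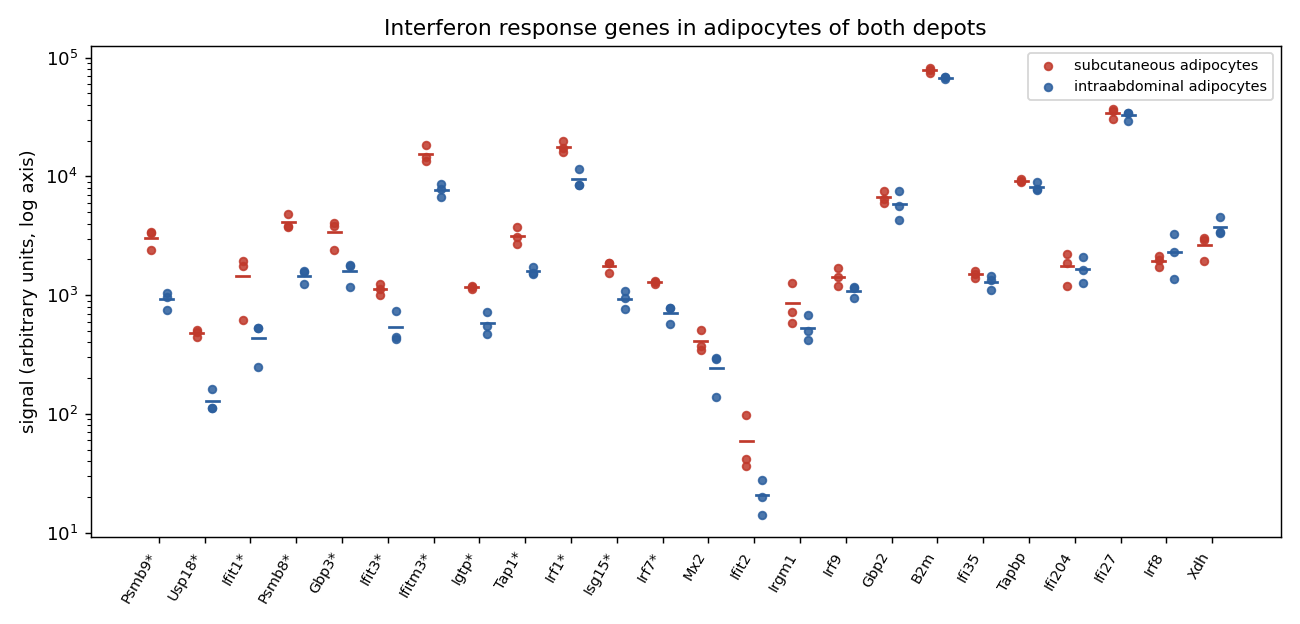
Signal of each adipocyte array (log axis, arbitrary units) for the 24 tested interferon-response genes, 1 point an array, with a bar at the mean of 3 arrays and an asterisk on the 12 called genes. The called genes, ordered by their difference on the left, have every subcutaneous array above every intraabdominal one, and Irf8 and Xdh on the right have the only differences below 0.

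Macrophages and lymphocytes also answer to interferon, and their markers are given beside this group. The summed signal of the macrophage markers was 29701 to 41270 in subcutaneous and 23856 to 36768 in intraabdominal adipocytes, which overlap, and their median difference was 0.16. Fcgr1, an Fc receptor of monocytes that interferon also induces, was 2.6-fold higher (adjusted p = 0.0197, 0.0659 with 6 arrays, 0.261 with the actin covariate). The summed lymphocyte markers ran the other way, at 15941 to 22962 against 29050 to 36910. This sum rests mainly on 1 gene, the immunoglobulin heavy chain Ighm, at 14525, 12437 and 11813 against 32638, 34323 and 24721 (2.35-fold, adjusted p = 0.0385). By gene, 9 of the 11 lymphocyte markers had a difference above 0, and their median was 0.62 (0.41 centred). The Ighm call was lost without any 1 of 5 adipocyte arrays, and stayed without intraabdominal array 3. It was also lost with array weights (0.0857), without a trend (0.0818) and with the actin covariate (0.251). The part of these cells in the interferon group was not tested.

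In the plated stromo-vascular cells the same list gave 6 genes higher and 0 lower between the depots, beside 6.91% of all genes higher and 13.9% called in either direction, with a median of 0.24 against 0.05 for all genes. Psmb8, Psmb9 and Irf1 were higher in both fractions: the stromo-vascular differences were 0.84 (adjusted p = 0.000986), 1.93 (0.00366) and 0.57 (0.0339). The interaction, which subtracts the depot difference of the cultured cells from that of the adipocytes, was called in 5 of the 12: Ifit1 (2.13, adjusted p = 0.0189), Gbp3 (1.49, 0.0126), Usp18 (1.23, 0.0375), Isg15 (1.18, 0.00742) and Ifitm3 (1.15, 0.00153). For these 5 the difference was larger in adipocytes than in the cultured cells. Over all 24 members 8 interactions were called, 6 of them positive. The others were Irgm1 (1.54, 0.0399), whose adipocyte difference was not called, and, with values below 0, Xdh (-1.21, 0.00489) and Tapbp (-1.20, 0.000489). For comparison, 586 of all genes (9.11%) and 733 of all probe sets (8.43%) had a called interaction.

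The promoters of the called members are shown because the element that interferon factors bind is known and short. Its core, the letters GAAA, then any 2 bases, then GAAA, the interferon-stimulated response element, was searched on both strands in the RefSeq promoter windows of build GRCm38.p6, from 250 bases before to 50 after the first listed start of each gene. Of the 12 called genes 11 had such a window, and 6 held the core: Isg15, Ifit1, Ifit3, Ifitm3, Gbp3 and Igtp. Of all promoters 3.489% (943 of 27025) held it, and of those of tested genes 3.045% (157 of 5156). The STAT palindrome, TTCC, then any 1 base, then GGAA, was in 0 of the 11 and in 1.106% of tested genes, and the GC box GGGCGG in 5 of the 11 and 63.829%. Both response-element searches were chosen after the calls were seen. The called genes come from a list of interferon-response genes, and its members without a call were not counted apart. The share with the core therefore does not bear on the depot difference. In the windows below, each ending at or before the start site and written 5′ to 3′ along the gene, capitals mark every base covered by the core on either strand, so that TTTC letters are the core read from the other strand.
Isg15: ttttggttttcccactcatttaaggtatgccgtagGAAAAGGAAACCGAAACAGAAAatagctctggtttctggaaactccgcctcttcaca
Ifit1: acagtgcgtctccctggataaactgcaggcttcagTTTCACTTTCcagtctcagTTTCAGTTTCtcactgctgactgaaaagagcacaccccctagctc
Ifit3: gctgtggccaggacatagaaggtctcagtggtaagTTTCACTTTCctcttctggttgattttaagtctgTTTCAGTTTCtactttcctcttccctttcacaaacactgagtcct
Gbp3: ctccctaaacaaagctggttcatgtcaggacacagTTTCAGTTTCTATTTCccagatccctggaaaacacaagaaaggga
Igtp: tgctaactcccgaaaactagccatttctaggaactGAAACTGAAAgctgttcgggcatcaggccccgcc
These lie at chr4:156200840-156200931 (minus strand), chr19:34640750-34640848 (plus strand), chr19:34583338-34583451 (plus strand), chr3:142559964-142560043 (plus strand) and chr11:58199487-58199555 (plus strand). Isg15 holds 3 overlapping matches, Ifit1, Ifit3 and Gbp3 hold 2 each, and Igtp holds 1. The last match ends between 24 (Igtp) and 112 (Ifit3) bases before the start. The promoters of Psmb8, Psmb9, Tap1, Irf1 and Irf7 held no match in this window, which says only that these letters are not there.

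Among all genes, those with the largest subcutaneous excess that were called in both fits, did not overlap and were bright in 1 group numbered 56, and 132 did so toward intraabdominal adipocytes. Of those with the largest differences, several are known from liver or from mitochondria. Chchd10, a small protein of the mitochondrial intermembrane space, read 35939, 32665 and 32518 on the subcutaneous adipocyte arrays and 9352, 10762 and 7894 on the intraabdominal ones (3.62-fold, adjusted p = 2.67e-06), with a narrow spread and a call in all 17 settings. Alb, serum albumin, read 1552, 1424 and 1723 against 204, 107 and 466 (6.08-fold, adjusted p = 0.00211), and Pon1, a lipoprotein-bound esterase made mainly by liver, read 1944, 1708 and 2214 against 469, 484 and 657 (3.48-fold, adjusted p = 0.00228). Both stood clear of the other depot, and both lost the call with the actin covariate (adjusted p = 0.0857 and 0.102). H2-Q10, a secreted class I molecule known from liver, read 16837, 12239 and 14589 against 3341, 3577 and 3534 (4.11-fold, adjusted p = 8.52e-07). A list of 29 liver-enriched genes on the array, chosen after these values were seen, had 13 members bright enough to test. Of these 3 were higher (Alb, Pon1 and Cps1), beside 3.67% of all genes, and 0 lower, with a median of 0.14. Ttr, transthyretin, read 346 ± 134 against 307 ± 78.9 (adjusted p = 0.909).

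Other leading subcutaneous genes were of mixed function. Plac8, a small cysteine-rich protein, read 1900, 744 and 2462 against 340, 271 and 556 (3.78-fold, adjusted p = 0.00271), uneven within the subcutaneous depot but above the other on every array. Gtf3c4, a subunit of a transcription factor of RNA polymerase III, read 682, 790 and 662 against 50.4, 262 and 140 (4.4-fold, adjusted p = 0.00348; 0.399 with the actin covariate), and another of its probe sets had a difference of the opposite sign. The ribosomal protein genes Rpl39l and Rpl32 were 3.92-fold and 3.83-fold higher (adjusted p = 0.000956 and 0.0333). For Rpl32 any 1 of 5 left-out arrays ended the call, the exception being intraabdominal array 3, as did array weights (0.0862) and the actin covariate (0.316). Of the 28 ribosomal protein genes tested 2 were higher and 1 lower, with a median of 0.02, and Rpl32 has close copies in the genome that could share its signal.

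Toward intraabdominal adipocytes, Tspan5, a tetraspanin, read 119, 76.4 and 249 against 543, 574 and 566 (3.44-fold, adjusted p = 0.00478), and Lima1, which bundles actin filaments, read 1168, 1181 and 828 against 4088, 4416 and 2006 (3.09-fold, adjusted p = 0.00252). Intraabdominal array 3 was the lowest of its depot for Lima1 and still above every subcutaneous array. Both lost the call with the actin covariate (adjusted p = 0.353 and 0.123).

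Regulators of embryonic position were found on both sides. Shox2, a homeobox factor of limb and trunk, read 2442, 2568 and 2361 on the subcutaneous adipocyte arrays and 264, 273 and 309 on the intraabdominal ones (7.76-fold, adjusted p = 3.77e-07), the firmest of these with a call in all 17 settings. En1, a homeobox factor that marks ventral limb and part of the dermis lineage, read 487, 306 and 475 against 22.2, 31.7 and 105 (5.24-fold, adjusted p = 0.000371; 0.0646 with the actin covariate), near the lower end of the array's range in the intraabdominal depot. Of 35 tested regulators of position 5 were higher (Shox2, Scx, En1, Ebf3 and Gata2) and 2 lower (Nr2f1 and Tcf21). These calls made up 20% of the list, beside 8.3% of all genes, and the median was 0.29 (0.07 centred, 0.04 after quantile normalization). In the fit of 6 arrays 3 higher and 1 lower calls held. Among 21 Hox genes Hoxc9 was higher (0.79, adjusted p = 0.0222) and Hoxc8 (-0.64, 0.033) and Hoxa5 (-0.92, 0.0218) lower. None of these Hox calls held with 6 arrays (adjusted p = 0.0991, 0.135 and 0.0888) or with the actin covariate (0.385, 0.695 and 0.145).

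Genes of sugar metabolism were called in both directions. Tkt, transketolase of the non-oxidative pentose phosphate pathway, read 82140, 77447 and 78272 on the subcutaneous adipocyte arrays and 41075, 47848 and 36527 on the intraabdominal ones (1.91-fold, adjusted p = 0.00133). Pgd, the dehydrogenase of the oxidative branch that makes NADPH, was lower at 9372, 8888 and 8293 against 19948, 18722 and 12520 (1.89-fold, adjusted p = 0.00224). Pkm, pyruvate kinase, was higher at 28620, 24584 and 26146 against 14284, 16839 and 13685 (1.77-fold, adjusted p = 0.00166). In each of these genes the groups did not overlap, and the calls held in both fits, though not with the actin covariate (adjusted p = 0.104, 0.17 and 0.116). Taldo1, transaldolase of the same non-oxidative branch as Tkt, was not called (0.24, adjusted p = 0.436). Of 25 genes of glucose uptake and glycolysis 2 were higher (Pkm and Pfkl) and 2 lower (Pgk1 and Slc2a1), with a median of 0.03. Pfkl, a phosphofructokinase, lost its call without any 1 of 4 arrays (subcutaneous array 1 and all intraabdominal ones; adjusted p = 0.0647 to 0.0968), with centred arrays (0.159), array weights (0.0962), no trend (0.0811) and the actin covariate (0.262).

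Of 25 genes of pyruvate entry and the citric acid cycle 4 were higher and 1 lower (20% called, beside 8.3% of all genes), with a median of 0.25 (0.03 centred, 0.29 after quantile normalization). Sucla2, the subunit of succinyl-CoA ligase that gives ATP, read 13443, 14200 and 10835 against 7481, 7587 and 8450 (1.62-fold, adjusted p = 0.00318) and was the 1 member called in both fits, though it too lost the call with the actin covariate (0.302). The kinases that switch off pyruvate dehydrogenase were called in opposite directions: Pdk4 read 10451, 22010 and 26517 against 3988, 4750 and 11756 (3-fold, adjusted p = 0.0166) and Pdk3 219, 410 and 526 against 1084, 738 and 1077 (2.45-fold, adjusted p = 0.00452). Pdk4 overlapped between the depots, through its intraabdominal array 3, and neither kinase was called with 6 arrays (adjusted p = 0.0723 and 0.0774). Omitting subcutaneous array 2 or 3 or intraabdominal array 1 or 2 ended the Pdk4 call (adjusted p = 0.0534 to 0.0824). With the actin covariate neither kinase kept its call (0.262 for Pdk4 and 0.454 for Pdk3).

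Fatty acid oxidation had 4 of 23 genes higher and 1 lower (21.7% called), with a median of 0.25 (0.03 centred). Ucp3, an uncoupling protein of muscle and brown fat, read 2042, 1947 and 1752 against 931, 575 and 975 (2.3-fold, adjusted p = 0.00863), and Acaa2, the mitochondrial thiolase that ends each cycle, read 83703, 80741 and 68233 against 51328, 50522 and 49767 (1.53-fold, adjusted p = 0.0067). Cpt2, on the inner membrane, was 1.41-fold higher, whereas Cpt1a on the outer membrane read 3278, 3302 and 3022 against 7100, 6609 and 5846 and was lower. Ucp3, Acaa2 and Cpt2 lost the call with the actin covariate (adjusted p = 0.137, 0.323 and 0.27), Acaa2 and Cpt2 also with centred arrays (0.0796 and 0.189), and Cpt2 without a trend (0.0587), in the fit of 6 arrays (0.0747) and without subcutaneous array 1 (0.0589) or intraabdominal array 2 (0.0739). Brown fat markers moved the same way as these genes: 5 of 7 were higher, 0 lower, and their summed signal was 35667 to 53433 against 4804 to 6070. Their part in the oxidation genes was not tested.

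Of 27 genes of fatty acid and triglyceride synthesis 3 were higher (Elovl6, Tkt and Me1) and 2 lower (Pgd and Idh1), which is 18.5% called beside 8.3% of all genes, with a median of 0.14. Elovl6, which lengthens palmitate, read 6274, 8139 and 8997 against 1675, 2066 and 1302 and was called in all 17 settings. Of the enzymes that supply NADPH for this synthesis, Me1 was 1.33-fold higher (adjusted p = 0.0353), and Idh1 and Pgd were 1.46-fold (0.0207) and 1.89-fold lower. Neither Me1 nor Idh1 was called with 6 arrays (adjusted p = 0.158 and 0.0696) or with the actin covariate (0.487 and 0.513). Of 23 lipid droplet and lipolysis genes 0 were higher and 1 lower, Gnai1, which inhibits adenylyl cyclase (1.49-fold, adjusted p = 0.0221; 0.0714 with 6 arrays, 0.554 with the actin covariate). Cholesterol synthesis and uptake had 0 of 21 higher and 1 lower, with a median of -0.21. That member, Hsd17b7, was not called with 6 arrays (adjusted p = 0.183) or with the actin covariate (0.57).

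**Figure D3:**
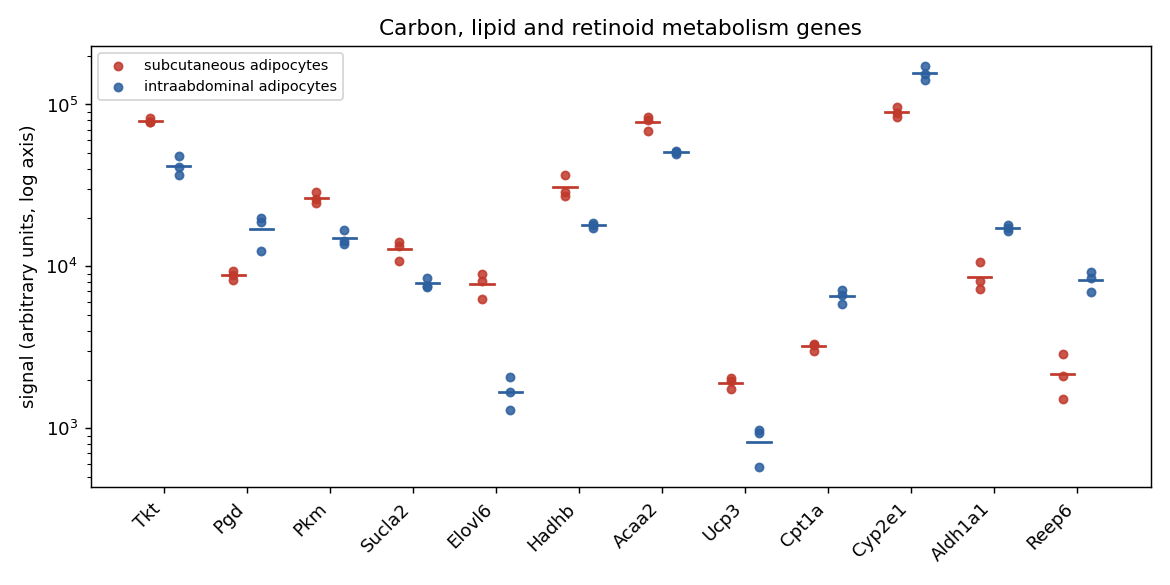
Signal of each adipocyte array (log axis, arbitrary units) for 12 genes, 1 point an array, with a bar at the mean of 3 arrays. All but Reep6 come from the lists of carbon, lipid and retinoid metabolism. The depots are separate in each gene, and Tkt and Pgd are separate in opposite directions.

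Insulin and cytokine signalling was led by Socs3, which also restrains the insulin receptor. It read 15714, 18156 and 18658 on the subcutaneous adipocyte arrays and 4341, 3493 and 2982 on the intraabdominal ones, with every subcutaneous array above every intraabdominal one (4.86-fold, adjusted p = 4.56e-07). In the stromo-vascular cells it was higher in the subcutaneous depot too (1.21, adjusted p = 7.44e-05), and the interaction was 1.07 (0.0058). Of 31 insulin signalling genes 3 were higher (Socs3, Socs2 and Inpp5d) and 1 lower (Cav1), of which Socs3 and Cav1 were called in both fits. Calls made up 12.9% of this list, beside 8.3% of all genes. Cav1, the coat protein of caveolae that hold the insulin receptor, read 27252, 36147 and 33073 against 51794, 48890 and 51162 (1.58-fold, adjusted p = 0.0131), and lost its call without intraabdominal array 1 (adjusted p = 0.0522) and with the actin covariate (0.355). Another Cav1 probe set had a difference of the opposite sign, as did another of P4hb, which is given with the chaperones. None of 17 genes of the IGF and growth hormone axis was called by the fit of 12 arrays.

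Cytokine and chemokine genes gave calls in both directions. Saa2, a serum amyloid A protein, read 1513, 1175 and 953 against 2665, 3360 and 3546 (2.6-fold, adjusted p = 0.0011), and Il1r1, the signalling receptor of interleukin-1, read 1224, 1167 and 907 against 1748, 4112 and 2589 (2.38-fold, adjusted p = 0.00415). The depots did not overlap in either, and both were called in all 17 settings. Il1rn, the antagonist that competes for that receptor, was 1.7-fold higher in intraabdominal adipocytes (adjusted p = 0.0313, 0.183 with 6 arrays, 0.636 with the actin covariate). It was named after its values were seen. With Saa3 and Lcn2 these made 5 of 40 cytokine and chemokine genes lower in subcutaneous adipocytes, 4 of them in both fits, while 3 were higher, among them Ccl8 (20% called in either direction). The median of the list was -0.07. Related genes without a call were Il1a (-1.03, adjusted p = 0.0535), Il1b (-1.82, 0.121), the decoy receptor Il1r2 (0.56, 0.364) and the acute-phase genes Hp (-0.15, 0.521), Orm1 (0.00, 0.997) and Serpina3n (-0.62, 0.0858). These were chosen after their values were seen.

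Transcription factors of the immediate early class, which dissociation of tissue can also induce, were called in both directions, more often lower. Of 40 genes 2 were higher and 5 lower (17.5% called, beside 8.3% of all genes), with a median of 0.02. In both fits 1 was higher and 5 were lower, beside 1.06% and 2.13% of all genes. Klf6 read 7448, 6110 and 6032 on the subcutaneous adipocyte arrays and 11704, 11857 and 15143 on the intraabdominal ones (1.96-fold, adjusted p = 0.00055), and Nfil3, a bZIP repressor, read 1770, 1374 and 1980 against 3877, 4253 and 3227 (2.2-fold, adjusted p = 0.00168). Egr2, a zinc finger factor of early adipogenesis, read 8172, 7977 and 9511 against 17955, 12156 and 13900 (1.69-fold, adjusted p = 0.0125) and lost its call without intraabdominal array 1 (adjusted p = 0.0661). In all of these the intraabdominal arrays were above the subcutaneous ones. The actin covariate ended the calls of Nfil3 (0.159) and Egr2 (0.617) and not that of Klf6. Errfi1, a feedback inhibitor of the EGF receptor that growth factors induce, read 5933, 4700 and 8750 against 22948, 22434 and 14518 (3.11-fold, adjusted p = 0.000243; 0.0949 with the actin covariate). Mras, a Ras-related GTPase, read 166, 134 and 201 against 646, 452 and 569 (2.87-fold, adjusted p = 0.00164; 0.22).

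Steroid, retinoid and nuclear receptor genes gave calls in 1 direction: all 6 called members of 42 tested were lower in subcutaneous adipocytes, each of them in both fits, beside 2.13% of all genes. The median of the list was 0.08 (-0.14 centred, -0.03 after quantile normalization), beside 0.05 for all genes (-0.16 centred). A difference above 0 was found in 22 of the 42 members, so the list as a whole stood near all genes. Aldh1a1, which oxidises retinaldehyde to retinoic acid, read 7276, 8131 and 10569 on the subcutaneous adipocyte arrays and 17187, 16578 and 17949 on the intraabdominal ones (2.01-fold, adjusted p = 0.000349), although another probe set of the gene had a difference of the opposite sign. Rxrb, a retinoid X receptor, read 1053, 484 and 1421 against 2471, 2895 and 2666 (2.88-fold, adjusted p = 0.00865), with subcutaneous array 2 lowest. Cyp2e1, an enzyme that oxidises ethanol and fatty acids, read 83146, 89051 and 96687 against 153347, 172922 and 141896 (1.74-fold, adjusted p = 0.00389). The groups of these genes did not overlap. With the actin covariate the adjusted p was 0.102, 0.485 and 0.197. Cyp1b1, Nr2f1 and Nr4a1 made up the rest.

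Hormones secreted by fat, 29 tested, gave 1 gene higher (Inhba) and 5 lower (Lep, Adm, Nampt, Saa3 and Lcn2). Calls made up 20.7% of the list, beside 8.3% of all genes. In both fits 4 of the 5 were lower, beside 2.13% of all genes. Saa3 and Lcn2 are also counted among the cytokine and chemokine genes above, so the lists share these calls. Adm, adrenomedullin, which widens vessels and is induced by low oxygen, read 6724, 4834 and 5733 against 10539, 9354 and 8945 (1.67-fold, adjusted p = 0.00415). Hif1a, the factor that senses low oxygen, read 12151, 16743 and 10454 against 26944, 26594 and 19155 (1.86-fold, adjusted p = 0.00412). Both were higher on every intraabdominal array, and lost the call with the actin covariate (0.261 and 0.0863). The rest of the hypoxia and vessel list did not follow: of 21 genes 1 was higher (Ddit4) and 2 lower, with a median of 0.08.

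Secreted inhibitors and proteases were divided between the depots. Serpinf1, the antiangiogenic serpin PEDF, read 2700, 2240 and 3532 on the subcutaneous adipocyte arrays and 1214, 998 and 730 on the intraabdominal ones (2.81-fold, adjusted p = 0.000186), and Pcolce, which enhances the trimming of procollagen, read 4673, 4140 and 5394 against 1345, 1705 and 2113 (2.74-fold, adjusted p = 0.000235). Both were called in all 17 settings. Toward the other depot, Ctsc, a lysosomal dipeptidase that activates serine proteases, read 997, 1032 and 1041 against 2429, 2183 and 2065 (2.13-fold, adjusted p = 0.00153; 0.127 with the actin covariate), and Nid2, a basement membrane linker, read 1414, 2175 and 1522 against 3624, 3741 and 3245 (2.08-fold, adjusted p = 0.00123; 0.0567). The proteases, serpins and plasminogen genes had 5 of 48 higher and 5 lower, and the non-collagen matrix 5 of 51 higher and 4 lower, with medians of 0.01 and 0.11. Of 19 preadipocyte and fibroblast markers, which make many of these proteins, 3 were higher and 1 lower. Their summed signal was 34015 to 53436 in subcutaneous and 35016 to 46598 in intraabdominal adipocytes. These ranges overlap, and the part of such cells was not tested.

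Of adhesion genes and solute carriers few were called in both fits. Jup, plakoglobin of cell junctions, read 1724, 1864 and 1469 on the subcutaneous adipocyte arrays and 3557, 3392 and 3388 on the intraabdominal ones (2.03-fold, adjusted p = 0.00351). Mcam, an adhesion molecule of vessel-associated cells, read 5961, 4366 and 4913 against 8620, 8480 and 7777 (1.64-fold, adjusted p = 0.00937), and Slc31a1, the copper importer, read 2136, 3488 and 2693 against 5855, 5008 and 4387 (1.84-fold, adjusted p = 0.00547). The depots were separate in each, and the actin covariate ended the calls (0.107, 0.223 and 0.309). Of 37 integrins, cadherins and adhesion genes 2 were higher and 4 lower. Of 111 solute carriers 1 was higher and 4 lower. Called members in either direction made up 16.2% of the adhesion genes and 4.5% of the solute carriers, beside 8.3% of all genes. Mylk, myosin light chain kinase, read 6257, 6613 and 7247 against 13831, 12714 and 12726 (1.95-fold, adjusted p = 0.000233; 0.0567 with the actin covariate). The summed smooth muscle and pericyte markers were 13388 to 17042 against 21728 to 23988, Mylk included. The median of these 12 markers was -0.06, and 5 of them had a difference above 0. The part of such cells in the Mylk value was not tested.

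In the remaining lists the share of members called ran from 0 to 13.3%, beside 8.3% of all genes. It was 13.3% for complement, 12.8% for G protein signalling and 11.3% for Wnt, BMP and TGF beta signalling. It was 10.5% for cell cycle genes, and below 8.3% for the other lists of this paragraph. None of 37 antioxidant and metallothionein genes was called by the fit of 12 arrays, although Gpx1, a glutathione peroxidase, had a difference of 0.64 (adjusted p = 0.0542). Heat shock genes and chaperones had 1 of 41 higher (Cryab) and 2 lower (Hspa5 and P4hb), with a median of -0.18. P4hb, protein disulfide isomerase, was the member called in both fits (2243, 1712 and 2941 against 4929, 3825 and 5041; 2.02-fold, adjusted p = 0.00529; 0.485 with the actin covariate). Cell cycle genes had 3 of 38 higher, none of them in both fits, and 1 lower, the inhibitor Cdkn2c (8036, 8388 and 9052 against 15099, 12976 and 12202; 1.57-fold, adjusted p = 0.00678; 0.385 with the covariate). Of 16 imprinted genes 1 was lower, Mest, and its call was lost without any 1 of the 6 arrays and with the actin covariate (0.526). G protein signalling had 3 higher and 3 lower of 47, and Wnt, BMP and TGF beta signalling 3 and 3 of 53. Complement had 2 of 15 higher and keratins 1 of 21, none of them in both fits, and symbols beginning Atp had 2 of 44 lower. Of these Atp6v0e2, a subunit of the proton pump of acidic organelles, read 985, 2150 and 1981 against 4077, 3308 and 4232 (2.35-fold, adjusted p = 0.00639; 0.375 with the actin covariate), with the depots separate.

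**Figure D4:**
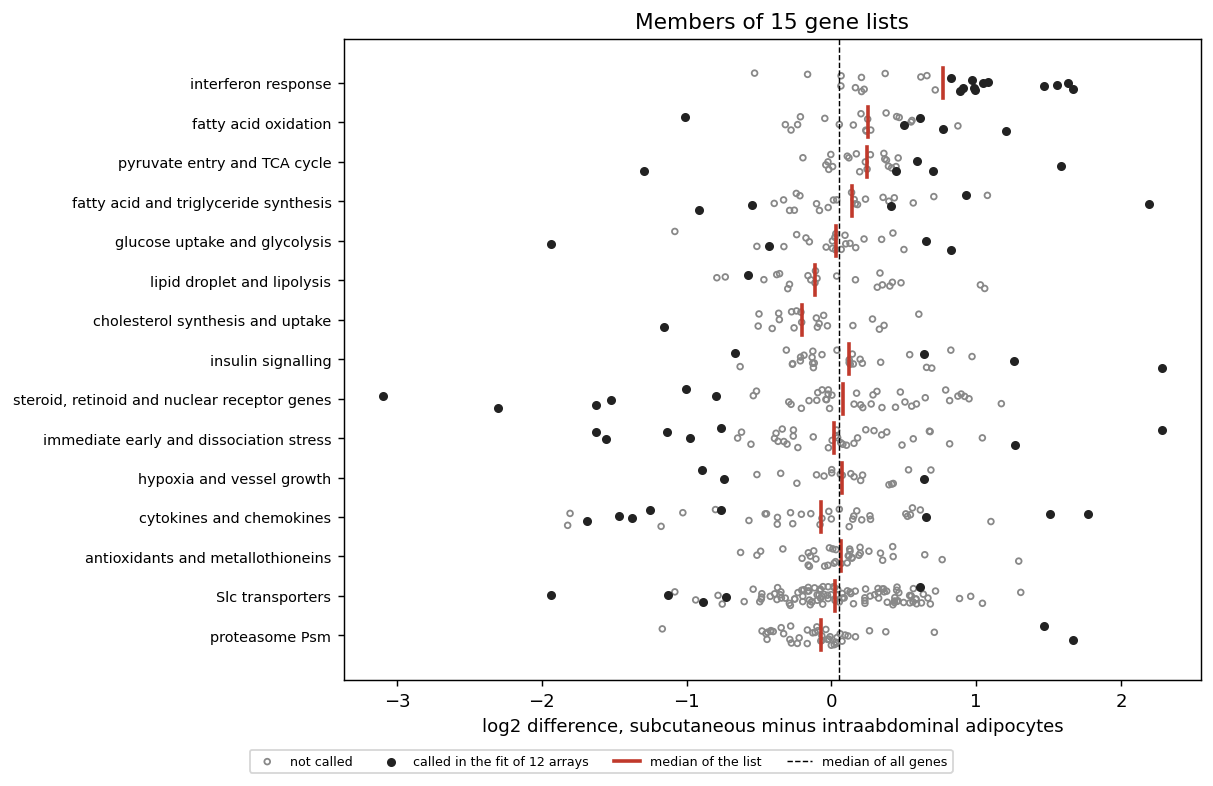
Log2 difference of subcutaneous minus intraabdominal adipocytes for every tested member of 15 gene lists, 1 point a gene, with the list's median and calls marked. The interferon list has the highest median of the pathway lists, 0.77 beside 0.05 for all genes.

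Of the 205 genes called in both fits 111 (54.1%) also had a called interaction, so that the depot difference of the adipocytes differed from that of the plated stromo-vascular cells. The interaction uses the adipocyte values that chose these genes, so this share is a description. Those cells had been cultured. The actin 3' to 5' ratio was 1.11 to 1.24 on their arrays and 1.71 to 3.10 on the adipocyte arrays. Fraction, culture and RNA breakdown therefore cannot be told apart in the interaction. Klf6 was 1 such gene, with differences of -0.97 in adipocytes and -0.14 in stromo-vascular cells (interaction -0.84, adjusted p = 0.0126), and Elovl6 another, with 2.20 and 0.32 (1.88, 0.0081). Other leading genes had no called interaction. For Shox2 the values were 2.96 and 3.09 (-0.13 ± 0.27, adjusted p = 0.834), for H2-Q10 2.04 and 2.23 (-0.19 ± 0.21, 0.654) and for Chchd10 1.86 and 2.02 (-0.16 ± 0.21, 0.719).

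**Figure D5:**
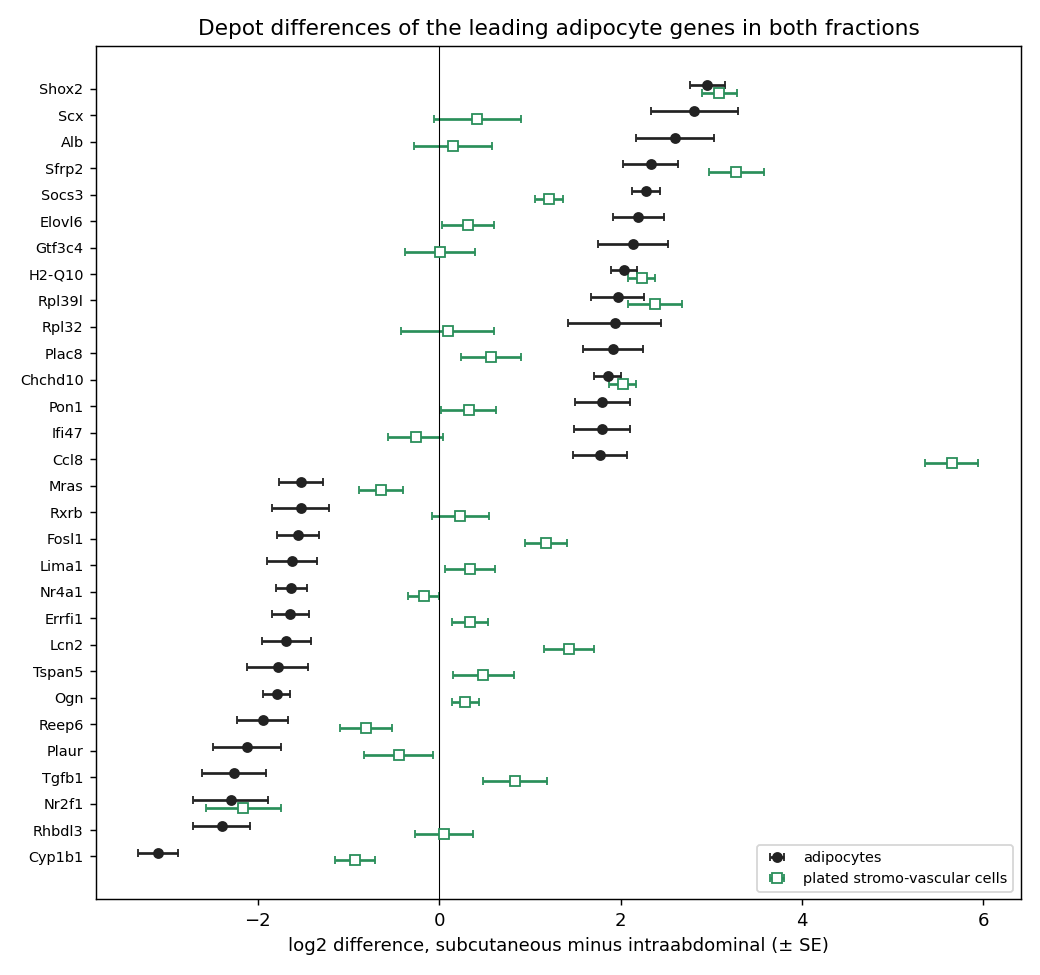
Log2 difference of subcutaneous minus intraabdominal samples, ± standard error (3 arrays a group), in adipocytes (filled circles) and in plated stromo-vascular cells (open squares) for the 15 leading genes in each direction. Shox2, H2-Q10 and Chchd10 have like values in both fractions, whereas Alb, Elovl6 and Cyp1b1 differ more in adipocytes.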

How the data were processed

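RNA of the 12 samples, 3 a group, was labelled from 15 µg and read on Affymetrix arrays that hold 12488 probe sets. Each deposited value is a linear intensity per probe set and array, computed by the authors with MAS5, per the submitters' processing notes; neither its version nor its detection calls were used here. Arrays had been scaled, with trimmed means within a ratio of 1.00017, and values were taken as deposited. The 66 control probe sets were left out. Of 12422 others 10833 had 1 gene symbol in the platform annotation, 396 several and 1193 none here. Probe sets with several symbols named no gene. In all 10817 were matched to current records by Entrez number, which can still be old names, and 0 symbols changed. No genome was used beyond RefSeq's promoter windows and their coordinates (GRCm38.p6).

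log2 of the signal plus 40.2 (the 10th percentile of all values) was fitted with limma 3.58.1 in R 4.3.3 (4 group means, 12 arrays, eBayes with an intensity trend, 8 residual degrees of freedom), after the lowest 30% of probe sets by mean were left out. The median standard error was 0.241. P-values were adjusted by Benjamini-Hochberg over 8695 probe sets. The probe set with the highest mean stood for a gene. The steps were tested on simulated data, where the fit of 12 arrays made more false calls than its threshold states and that of the 6 adipocyte arrays did not. Alternatives changed 1 choice at a time, except that the replicate block was fitted on the 6 adipocyte arrays alone: pseudocount, filter, centring, quantile normalization, the 6 adipocyte arrays alone, array weights, replicate block, actin ratio as covariate, no trend, the probe set with the smallest p, and each adipocyte array left out.

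The members and gene lists were chosen with earlier results of these data known. Genes named are the 15 largest differences in each direction among those called in both fits, without overlap and with a higher group mean of at least 497 (the median of all values), and, from each list, up to 6 called members taken in order of p. Mup, Agt, collagen and brown fat genes were left out of the first rule. Genes outside these rules are said to be chosen after their values were seen. The small number of arrays limits the precision of every value.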

Additional observations from a re-analysis of the deposited data

Results flagged for a closer look

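The interaction, the adipocytes' depot difference less that of plated stromo-vascular cells, was called for 19 of the 30 leading genes, beside 9.11% of all genes; these genes were chosen by the same adipocyte values. The value is on the log2 scale, and the stromo-vascular cells had been cultured, which the adipocytes had not. The actin 3' to 5' ratio was also lower on the stromo-vascular arrays, as given above. The interaction was positive, the subcutaneous excess being larger in adipocytes, for Alb (2.45), Scx (2.39), Gtf3c4 (2.13), Ifi47 (2.06), Elovl6 (1.88), Pon1 (1.47) and Socs3 (1.07). It was negative for Lcn2 (-3.11), Tgfb1 (-3.10), Fosl1 (-2.73), Rhbdl3 (-2.45), Tspan5 (-2.27), Cyp1b1 (-2.16), Ogn (-2.08), Errfi1 (-1.98), Lima1 (-1.97), Rxrb (-1.76) and Nr4a1 (-1.46), genes that were higher in intraabdominal adipocytes. Ccl8 was the exception to this split: it was higher in subcutaneous adipocytes by 1.77 and in subcutaneous stromo-vascular cells by 5.65, an interaction of -3.88 (adjusted p = 3.95e-05). Lcn2 differed by -1.68 in adipocytes and 1.43 in stromo-vascular cells, and Tgfb1 by -2.26 and 0.84.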

How the results depend on the processing

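The comparison of the adipocyte groups called 707 probe sets. The count was 299 with the 6 adipocyte arrays alone, 257 with the replicate block added on those 6 arrays (against 299, not 707) and 97 with the actin covariate, and 367 to 958 with 1 array left out. It was lowest without intraabdominal array 2 (367) or 1 (375) and highest without intraabdominal array 3 (958). The cause was not tested, though the fits of 6 arrays have fewer residual degrees of freedom. Deviations of same-numbered arrays from their group means correlated at 0.0153, -0.00531 and -0.0528, and subcutaneous array 2 correlated best with intraabdominal array 3 (0.0649). Deviations from a mean of 3 arrays are not independent. These values therefore cannot tell whether same-numbered arrays shared mice or a batch. The other settings gave 490 to 958 calls, the highest with each array centred on its median. Of the 205 genes called in both fits all kept their direction in every alternative run, 47 were called in all of them and 141 in all but the actin covariate. Interferon genes called higher numbered 12, and 8 with the 6 arrays alone, 7 once the replicate block was added to those, 8 with each array centred, 8 with array weights and 3 with the actin covariate. The interaction called 733 probe sets and 678 to 766 in the alternatives run for it.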

Other observations

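Most called genes of a list of cytoskeleton symbols were higher in intraabdominal adipocytes. The list takes symbols by their first letters, for actins, tubulins, tropomyosins, annexins and some of their regulators, and so also holds Cflar, a caspase regulator. It was made after some of the values were seen, so the count is a description. Among 60 tested genes, subcutaneous adipocytes had 2 higher and 19 lower, beside 3.67% and 4.63% of all genes. In both fits it was 1 and 13, beside 1.06% and 2.13% of all genes. The median was -0.23 beside 0.05 for all genes (-0.44 beside -0.16 with centred arrays). Tuba1c, an alpha tubulin, read 89837, 65489 and 73571 against 175633, 150895 and 155369 (2.12-fold, adjusted p = 0.000501). Actg1, cytoplasmic gamma actin, read 36338, 34410 and 39851 against 60723, 62100 and 60661 (1.66-fold, adjusted p = 0.00127), and Cfl1, which severs actin filaments, read 12699, 12821 and 12007 against 22142, 22198 and 19928 (1.71-fold, adjusted p = 0.00159). Every intraabdominal array lay above every subcutaneous one in these genes. Vcl, which links integrins to actin, was 1.82-fold and Rac1, a GTPase of membrane ruffles, 1.7-fold higher in intraabdominal adipocytes. The phospholipid binding annexins Anxa1 and Anxa2 were 1.67-fold and 1.85-fold higher there too, whereas Anxa8 was 2.79-fold higher in subcutaneous adipocytes (3039, 3036 and 4447 against 1070, 1444 and 1145; adjusted p = 0.000607). With the actin covariate the adjusted p was 0.0727 for Tuba1c, 0.112 for Actg1, 0.106 for Cfl1, 0.114 for Vcl, 0.0678 for Rac1 and 0.229 for Anxa2, while Anxa1 and Anxa8 kept their calls. The list holds many bright probe sets, and the brightest of the 4 bins of probe sets had a median of -0.09. The 3' to 5' ratio of the actin control differed between the depots as given above, and its part in these values was not tested.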
